A study of Mus musculus with 14 samples.

Results

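Camk2a, Camk2b, Camk2d and Camk2g encode the alpha, beta, delta and gamma subunits of calcium/calmodulin-dependent protein kinase II (CaMKII), and were followed in mouse heart at 2 ages. These 4 of 49315 genes in the count table were taken by name, and the family was chosen by its measured counts and isoform shares at 12 against 68 weeks. The age difference of the 4 genes is therefore given as a description, with no p-value. RNA of heart tissue came from male wild-type mice of the C57BL/6 strain fed standard chow, with 4 libraries at 12 weeks and 4 at 68 weeks of age. Both ages share strain, sex, genotype and diet. Whether each library is a different mouse is not said in the labels, so every SD, SE and p-value measures the spread between libraries, which may be technical. H3K27me3, a histone mark of gene silencing set by Polycomb complexes, was profiled by CUT&RUN in the same tissue, and the deposited result is 1 list of regions per age.

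CaMKII is a serine/threonine kinase that is switched on when calcium-loaded calmodulin binds it, and that stays active after autophosphorylation or oxidation. Its subunits join into large holoenzymes, in which products of different genes can mix. In cardiac myocytes it acts on the ryanodine receptor, phospholamban, the L-type calcium channel and class IIa histone deacetylases, and its sustained activity is known from heart failure and arrhythmia. The delta subunit is regarded as the main form in heart, while the beta subunit is known chiefly from brain and skeletal muscle. In striated muscle the Camk2a gene also gives rise to alphaKAP, an anchoring protein that lacks the kinase domain. The counts are per gene, and neither alphaKAP nor the splice forms of the delta and beta subunits could be told apart in them.

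Of the family, Camk2b differed most between the ages, and its promoter is shown beside that of Camk2d, the member with the most counts. RefSeq (GRCm38.p6) gave a promoter window, from 250 bases before to 50 after the RefSeq gene start, for these 2 of the 4 members. Both windows lie inside the gene spans of the count tables, which start further upstream, at 6066362 for Camk2b and 126596302 for Camk2d. The Camk2b window lies at chr11:6065699-6065998 on the minus strand and the Camk2d window at chr3:126596701-126597000 on the plus strand. Both are written 5′ to 3′ with CpG dinucleotides in capitals.
Camk2b: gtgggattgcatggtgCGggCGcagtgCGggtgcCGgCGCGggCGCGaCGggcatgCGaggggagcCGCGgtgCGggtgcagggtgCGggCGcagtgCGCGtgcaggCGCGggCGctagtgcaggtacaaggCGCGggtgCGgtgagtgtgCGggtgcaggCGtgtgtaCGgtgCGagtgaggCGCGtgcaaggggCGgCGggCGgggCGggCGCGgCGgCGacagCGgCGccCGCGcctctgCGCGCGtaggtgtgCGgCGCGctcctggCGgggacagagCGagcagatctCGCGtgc
Camk2d: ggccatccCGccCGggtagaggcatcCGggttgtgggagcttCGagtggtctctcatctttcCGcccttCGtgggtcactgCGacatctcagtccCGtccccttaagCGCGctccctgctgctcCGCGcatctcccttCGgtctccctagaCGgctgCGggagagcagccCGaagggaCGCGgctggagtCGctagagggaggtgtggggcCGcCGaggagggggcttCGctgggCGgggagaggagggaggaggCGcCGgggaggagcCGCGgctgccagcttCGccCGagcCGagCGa
The Camk2b window held 51 CpG and 77.3% G or C, and 99.3% of 32851 promoter windows of that length held fewer CpG. The Camk2d window held 31 CpG and 70.3% G or C, and 89.4% of windows held fewer. The median window held 7 CpG and 52.7% G or C. The GC box GGGCGG, searched on both strands, was found 3 times in each, and 35.7% of all windows held it. The E-box CANNTG was found in neither, against 72.3% of all windows. These matches describe the letters of the windows alone.

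Library totals ran from 23599296 to 34599121 counts. Cardiac myocyte markers were high in every library, the 12 markers summing to 77594 to 86916 CPM (the count divided by the TMM-adjusted library total, on the usual scale) at 12 weeks and to 83024 to 90055 CPM at 68 weeks. Airway and lung epithelium markers, 16 genes foreign to heart muscle, were present at 1747, 973 and 580 CPM in the first 3 libraries at 12 weeks. They were at 31.9 CPM in 12-week replicate 4, at 1202 CPM in 68-week replicate 3 and at 1.49 to 2.09 CPM in the other 3 libraries at 68 weeks. In bulk tissue, more cells of a type and more RNA per cell cannot be told apart.

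Camk2b was higher at 68 weeks in every library. It measured 13.1, 12.8, 13.7 and 13.6 CPM across replicates 1 to 4 at 12 weeks, and 23.2, 26.96, 26.01 and 24.2 CPM across those at 68 weeks. The ages did not overlap, and the gap between them was wider than the spread within either. The means were 13.3 ± 0.41 CPM at 12 weeks and 25.1 ± 1.68 CPM at 68 weeks (SD, n = 4), with a log2 fold change of 0.92 ± 0.061 (SE, edgeR), a 1.89-fold difference. Counts behind these values ran from 318 to 446 at 12 weeks and from 702 to 815 at 68 weeks. The libraries at 12 weeks varied by 3.08% of their mean, less than the 5.20% that counting error alone gives, and those at 68 weeks by 6.69%, against 3.61%. The gene (ENSMUSG00000057897) spans 5969644 to 6066362 on chromosome 11 in the count tables, mm10 by label, with 27 separate exon blocks. No other gene of the tables overlapped it.

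**Figure D1:**
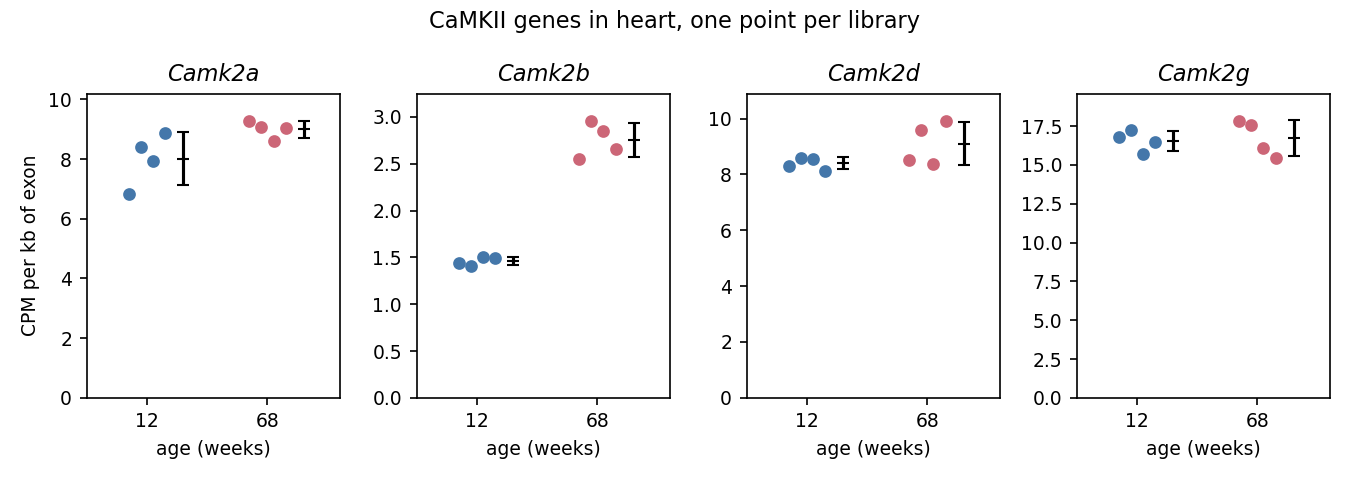
Level of each CaMKII gene as CPM per kb of exon (vertical axes, each from 0) at 12 and 68 weeks, with 1 point per library and the mean ± SD (n = 4) to the right. Camk2b alone shows no overlap between the ages, with means of 1.46 and 2.75 CPM per kb.

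Camk2d, the delta subunit, measured 187, 193, 192 and 183 CPM across replicates 1 to 4 at 12 weeks, and 191, 216, 189 and 223 CPM across those at 68 weeks. The ages overlapped, with 68-week replicates 2 and 4 above all the others. The log2 fold change was 0.12 ± 0.063. The libraries varied by 2.56% of their mean at 12 weeks and by 8.42% at 68 weeks, where counting error gives 1.38% and 1.27%. The gene (ENSMUSG00000053819; chromosome 3, 126596302 to 126846326, plus strand) holds 8 predicted genes within its span, none sharing exon bases with it.

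Camk2g, the gamma subunit, measured 62.1, 63.8, 58.2 and 61.0 CPM across replicates 1 to 4 at 12 weeks, and 66.0, 65.1, 59.5 and 57.1 CPM across those at 68 weeks. Its libraries at 68 weeks lay both above and below those at 12 weeks. The log2 fold change was 0.014 ± 0.058. In 68-week replicate 4, Camk2g was lowest and Camk2d highest of the 8 libraries. The gene (ENSMUSG00000021820) lies on chromosome 14, 20734875 to 20794088, minus strand.

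Camk2a, the source of the alpha subunit and of alphaKAP, measured 50.9, 62.8, 59.2 and 66.3 CPM across replicates 1 to 4 at 12 weeks, and 69.2, 67.8, 64.2 and 67.5 CPM across those at 68 weeks. The ages overlapped through 12-week replicate 4 and 68-week replicate 3. The log2 fold change was 0.17 ± 0.076. Camk2a was lowest in 12-week replicate 1, the library with the most airway counts, and highest at 12 weeks in replicate 4, which had the fewest of that age. The order did not hold for the remaining libraries of that age. Replicate 2 had more airway counts than replicate 3 (973 against 580 CPM) and also more Camk2a. With those counts as a covariate its log2 fold change was 0.072 ± 0.088, and between the 4 libraries low in these markers, 1 at 12 weeks against 3 at 68 weeks, it was 0.042 ± 0.076. Airway counts were high in more libraries at 12 than at 68 weeks, so neither fit separates them from age. The part of the airway RNA in the Camk2a values was not tested. The gene is ENSMUSG00000024617 on chromosome 18.

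All 4 members passed the filter on low counts. Camk2b was past the threshold of the test across all genes (adjusted p of at most 0.05, edgeR), which is 1 of 4, where 2.83% of 15947 genes tested were past it, 1.61% higher and 1.22% lower at 68 weeks. With library size alone as the scaling, 176 genes were higher and 248 lower, against 256 and 195, and Camk2b had a log2 fold change of 0.86 ± 0.063. The CPM ranges of the ages did not overlap for 1 of 4 members and for 12.1% of all genes tested. Since the same contrast chose the family, nothing is read from these counts. The size of the Camk2b difference exceeded that of 96.3% of all genes tested, and those of Camk2a, Camk2d and Camk2g exceeded 63.5%, 51.3% and 7.34%.

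The order of the genes depended on length. Scaled to the exon length in the count tables, Camk2g was highest at 12 weeks, with 16.6 ± 0.64 CPM per kb. Camk2d (8.39 ± 0.22) and Camk2a (8.01 ± 0.88) followed and did not differ beyond their spread, and Camk2b was lowest, with 1.46 ± 0.045 CPM per kb. At 68 weeks the order was the same, at 16.7 ± 1.16, 9.10 ± 0.77, 9.001 ± 0.28 and 2.75 ± 0.18 CPM per kb. By CPM without the length scaling, Camk2d was highest in all 8 libraries. The exon length was 22493 bases for Camk2d against 3703 for Camk2g, 7465 for Camk2a and 9125 for Camk2b. It is the union of all annotated exons, which need not all be used in heart, so the place of Camk2d relative to Camk2g rests on the annotation.

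Within the family sum, the share of Camk2b was higher at 68 weeks in every library, and those of the other members overlapped between the ages. By counts, Camk2b took 4.20%, 3.85%, 4.23% and 4.20% of the family in 12-week replicates 1 to 4 and 6.64%, 7.17%, 7.69% and 6.52% in 68-week replicates 1 to 4. The mean went from 4.12% ± 0.18 to 7.01% ± 0.53, a difference of 2.88 percentage points, or of 3.09 by counts per kb. Camk2d took 58.4% ± 1.48 and 57.0% ± 2.29, Camk2g 19.0% ± 0.78 and 17.3% ± 1.44, and Camk2a 18.5% ± 1.74 and 18.7% ± 0.81 of the counts at 12 and 68 weeks. Per kb, Camk2g took 48.1% ± 1.65 and 44.5% ± 2.09, with ranges of 46.6% to 50.3% and 41.7% to 46.7%. These ranges met only between 12-week replicate 3 and 68-week replicate 1. Camk2b stayed the smallest member in every library by either measure.

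**Figure D2:**
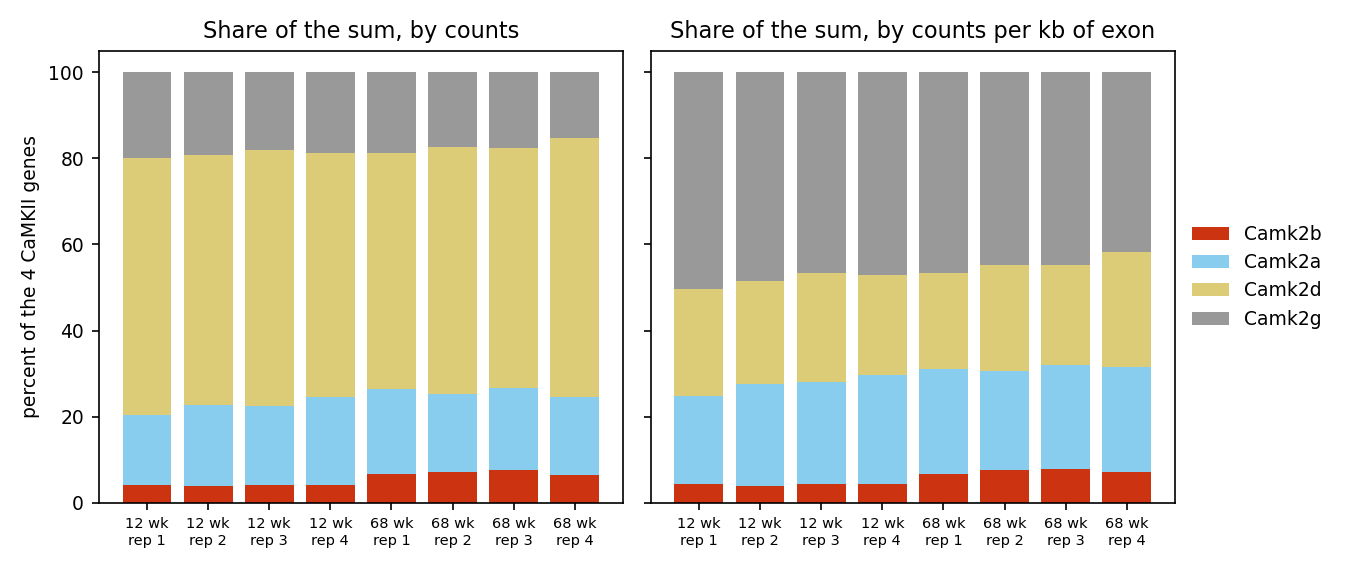
Share of each gene in the sum of the 4 CaMKII genes (vertical axis, percent) in each library, by counts (left) and by counts per kb of exon (right). The lowest segment, Camk2b, covers 3.85% to 4.23% of counts at 12 weeks and 6.52% to 7.69% at 68 weeks, and the largest segment is Camk2d by counts and Camk2g per kb.

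Relative to Camk2d within each library, Camk2b stood at 17.3, 16.4, 17.5 and 18.3 per 100 Camk2d, per kb, in 12-week replicates 1 to 4, and at 29.9, 30.8, 34.0 and 26.8 in 68-week replicates 1 to 4. This ratio needs no scaling between libraries, and its ages did not overlap. The same ratio to Camk2d was 95.5 ± 11.3 and 99.3 ± 7.97 for Camk2a, and 197 ± 9.09 and 185 ± 22.3 for Camk2g, with overlapping ages. The family summed to 323 ± 8.07 CPM at 12 weeks and to 359 ± 17.9 CPM at 68 weeks. Without Camk2b the sums were 310 ± 8.19 and 334 ± 17.6 CPM, and their ranges overlapped.

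The summed markers of the other tissues in which Camk2b is known overlapped between the ages. The 12 skeletal muscle markers summed to 30.5 to 38.0 CPM at 12 weeks and to 24.6 to 39.4 CPM at 68 weeks, with 8 of them, among them Myh1, Myh2, Myh4, Mylpf and Myod1, under 1 CPM in every library. Of these 12, Mylpf alone did not overlap, at 0.469 to 0.732 CPM at 12 weeks and 0.180 to 0.298 CPM at 68 weeks. Most of each sum was Mybpc2, at 22.9 to 28.8 CPM at 12 weeks and 18.1 to 35.2 CPM at 68 weeks. The overlap of the sums is therefore mainly that of Mybpc2. The 6 tested skeletal muscle markers had a median log2 fold change of -0.50, with 1 positive. The 12 neuron markers summed to 10.5 to 22.1 and 14.96 to 24.1 CPM, with 5, among them Syn1, Elavl4, Th and Chat, under 1 CPM in every library. In neither list was a gene past the threshold by edgeR or DESeq2, while 3 of 6 tested skeletal muscle markers and 1 of 7 tested neuron markers had an unadjusted p under 0.05 by edgeR. Relative to the myocyte marker counts of its own library, Camk2b was 1.79 times as high at 68 weeks, and the ages did not overlap. Of those 12 myocyte markers, 0 were called by edgeR, where 3 had an unadjusted p under 0.05. DESeq2 called 1 of them, Actc1, higher at 68 weeks (8527 and 12454 CPM on average at 12 and 68 weeks). Camk2b was 13.6 CPM in the 12-week library lowest in airway markers, and 26.01 CPM in the 68-week library high in them, each within the range of the other 3 libraries of its age. Its log2 fold change with airway markers in the model was 0.93 ± 0.083, and between the 4 libraries low in airway markers 0.87 ± 0.13, where it was not past the threshold. The adipocyte and brown fat markers had lower sums at 68 weeks (50.2 to 161 CPM, against 226 to 651), and 3 of 8 of them fell by edgeR and 5 by DESeq2. Ucp1 alone ran from 64.2 to 368 CPM at 12 weeks and from 0.893 to 55.0 CPM at 68 weeks. Lep, 1 of the 8, went the other way (log2 fold change 0.85 ± 0.48). Of the blood and immune cell markers, 3 of 10 fell by edgeR and 5 by DESeq2, with sums of 868 to 6869 CPM at 12 weeks and 390 to 7195 CPM at 68 weeks. Most of each sum was the haemoglobin genes Hba-a1 and Hbb-bs, so the sums do not describe immune cells. Cd3e and Cd68, 2 of the 10, had a positive log2 fold change (0.46 ± 0.40 and 0.19 ± 0.13). Of the fibroblast markers, 1 of 8 fell by edgeR and 4 by DESeq2, with sums of 1401 to 1615 CPM and 1012 to 1302 CPM. Those 4 were Col1a1, Col1a2, Col3a1 and Pdgfra, while 3 of the 8, Dcn, Lum and Dpt, had a positive log2 fold change. Of the endothelial markers, 0 of 8 were called by edgeR, where 3 had an unadjusted p under 0.05, and 3 fell by DESeq2. Of the Schwann cell markers, 0 of 8 were called by edgeR, where 5 had an unadjusted p under 0.05, and 2 fell by DESeq2. Their part in the CaMKII values was not tested. The share of all genes with an unadjusted p under 0.05 is not given here, so nothing is read from those counts.

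The other genes of the pathway were taken from 7 fixed lists of 79 genes in all, of which 75 were tested. By edgeR, 3 rose and 0 fell, which is 4.0% against the 2.83% of all genes. Their median log2 fold change was 0.037, against -0.0082 over all genes tested. DESeq2 called 11 of them, all higher. Over all 30702 genes of that fit, which had no filter on low counts, it called 564 higher and 437 lower. By edgeR, 24 of the pathway genes had an unadjusted p under 0.05. The share of all genes under that p is not given here, so nothing is read from such counts, here or in the single lists.

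Calmodulin is the calcium sensor that activates the kinase. Its gene Calm3 averaged 177 ± 11.7 CPM at 12 weeks and 206 ± 8.28 at 68 weeks (log2 fold change 0.22 ± 0.058, adjusted p = 0.0781, edgeR), and Calm2 had 0.20 ± 0.058 (adjusted p = 0.108). Among the other calmodulin-dependent kinases, Mylk4, of the myosin light chain kinase family, rose. It measured 242, 249, 219 and 212 CPM across replicates 1 to 4 at 12 weeks, and 297, 379, 298 and 303 CPM across those at 68 weeks (log2 fold change 0.47 ± 0.090, adjusted p = 0.0308, edgeR). Its ages did not overlap. The cardiac myosin light chain kinase gene Mylk3 had 0.037 ± 0.062 (adjusted p = 0.788). Camkk2, which encodes a kinase that activates CaMKI and AMPK, had -0.26 ± 0.073 (adjusted p = 0.0904). In this list, edgeR called 1 of 14 tested genes, and DESeq2 called 3, all higher (Mylk4, Calm2 and Calm3).

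Genes that restrain, dephosphorylate or modify CaMKII held 0 calls among 14 tested by edgeR and by DESeq2, with 4 at an unadjusted p under 0.05 by edgeR. Camk2n1, which encodes an inhibitor protein of CaMKII, measured 35.8, 32.7, 31.7 and 34.4 CPM across replicates 1 to 4 at 12 weeks, and 39.0, 35.6, 39.9 and 36.8 CPM across those at 68 weeks (log2 fold change 0.17 ± 0.055, adjusted p = 0.138, edgeR). The second inhibitor gene, Camk2n2, was near 1 CPM at both ages (0.963 ± 0.089 and 0.993 ± 0.14). Ppm1f, which encodes a CaMKII phosphatase, had 0.11 ± 0.074 (adjusted p = 0.442). Ogt and Oga, whose enzymes add and remove O-GlcNAc, had -0.012 ± 0.048 and -0.14 ± 0.046 (adjusted p = 0.922 and 0.15). Cybb, the catalytic subunit of NADPH oxidase in phagocytes and other cells, had -0.37 ± 0.11 (adjusted p = 0.117), and Ppp1r1a, an inhibitor of protein phosphatase, -0.68 ± 0.18 (adjusted p = 0.0772).

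The 13 tested CaMKII substrates of the myocyte had a median log2 fold change of 0.19, and 5 of them had an unadjusted p under 0.05 by edgeR. The ryanodine receptor gene Ryr2 (0.069 ± 0.058), the phospholamban gene Pln (0.043 ± 0.066) and the calcium channel gene Cacna1c (0.20 ± 0.065) had adjusted p = 0.557, 0.768 and 0.128 (edgeR). The class IIa deacetylase genes Hdac4 and Hdac5, which CaMKII signalling moves out of the nucleus, had 0.27 ± 0.067 and -0.094 ± 0.056 (adjusted p = 0.0671 and 0.398). Of 7 tested genes of class IIa deacetylases and the MEF2 factors they repress, 0 were called by edgeR, 1 by DESeq2 (Hdac4), and 3 had an unadjusted p under 0.05.

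Akap6, which encodes an anchoring protein of the nuclear envelope in myocytes, rose from 359 ± 7.93 CPM to 418 ± 12.6 CPM (log2 fold change 0.22 ± 0.045, adjusted p = 0.0364, edgeR), 1 of 6 tested anchors and scaffolds. Sptbn4, the spectrin gene whose product holds CaMKII at the intercalated disc, was under 1 CPM on average at both ages. Of 11 calcineurin and NFAT genes, the parallel calcium-calmodulin pathway, 0 were called by edgeR or DESeq2 and 2 had an unadjusted p under 0.05. Of 12 splicing factor genes, 0 were called by edgeR and 2 by DESeq2, Rbm24 and Mbnl2, with 3 at an unadjusted p under 0.05 by edgeR. Rbm20, whose protein shapes Camk2d splicing, had 0.039 ± 0.055 (adjusted p = 0.742).

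The calls of Mylk4 and Akap6 changed when single libraries were left out. Akap6 was not called when any single library was left out (adjusted p = 0.0599 to 0.0868, edgeR). Mylk4 was not called without any 1 of the 12-week libraries or without 68-week replicate 4 (adjusted p = 0.0507 to 0.0799). With the airway counts as a covariate, the log2 differences were 0.46 ± 0.12 for Mylk4 and 0.22 ± 0.065 for Akap6, and neither was called (adjusted p = 0.23 and 0.288).

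**Figure D3:**
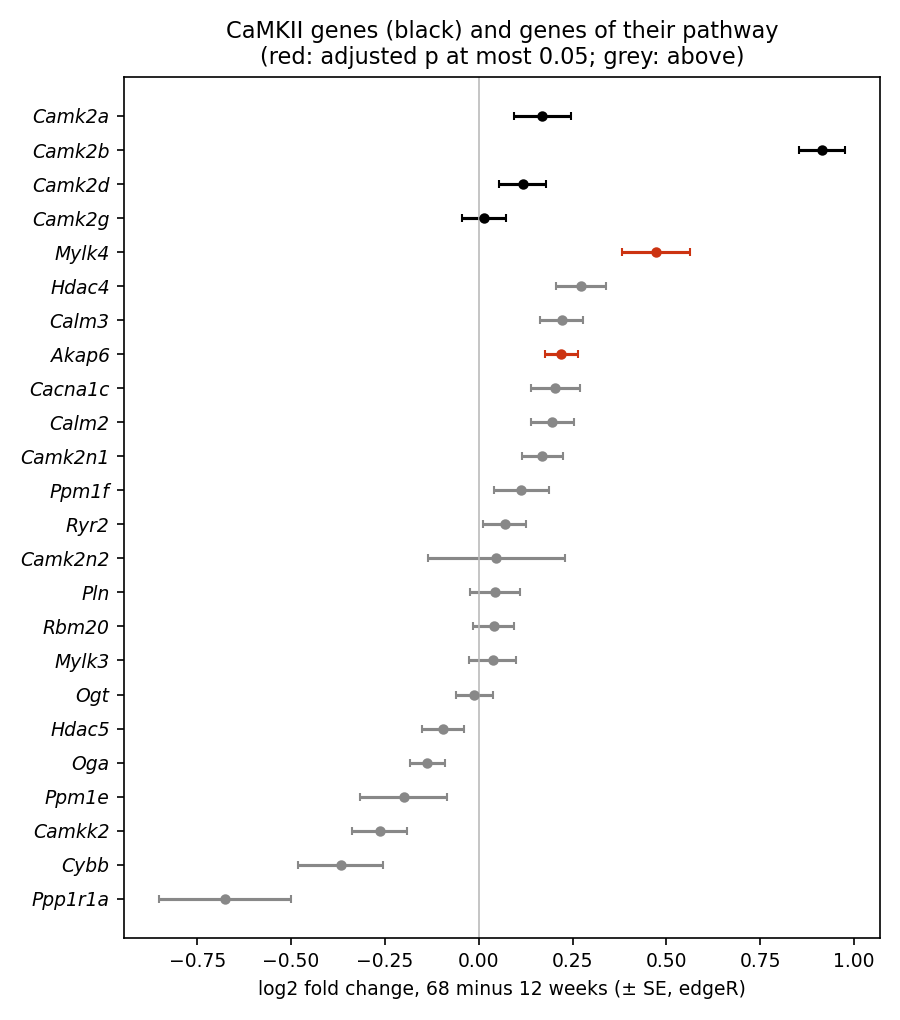
Log2 fold change from 12 to 68 weeks with its SE for the 4 CaMKII genes (black) and 20 pathway genes described in the text (red where called by edgeR, grey where not). Camk2b, at 0.92, lies to the right of the called genes Mylk4 (0.47) and Akap6 (0.22).

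The genes nearest to Camk2b by their pattern over the 8 libraries were Ighg2c, Epor, Ric3, Klk1b26 and Cds1. Likeness was the root mean square difference between standardized log2 CPM profiles, ranked over 12619 genes, and it ran from 0.126 for Ighg2c to 0.200 for Cds1, against a median of 1.42. All 5 were higher in every library at 68 weeks than in any at 12 weeks. That step follows from ranking by likeness to Camk2b, which has it, and is no separate result. Ighg2c, an immunoglobulin heavy chain gene, went from 1.91 ± 0.083 to 11.6 ± 1.20 CPM, Epor, the erythropoietin receptor gene, from 1.35 ± 0.11 to 3.24 ± 0.34 CPM, and Ric3, a chaperone gene of acetylcholine receptors, from 3.05 ± 0.22 to 7.23 ± 0.84 CPM. Klk1b26, of a kallikrein family with near-identical copies and so an uncertain count, went from 0.399 ± 0.091 to 1.94 ± 0.37 CPM. At 12 weeks it measured only 0.265 to 0.469 CPM. It met the ranking's minimum mean log2 CPM of 0 only through its 68-week values, so its place partly reflects that filter. Cds1, whose enzyme makes CDP-diacylglycerol, went from 7.93 ± 0.97 to 24.2 ± 2.77 CPM. Camk2a, Camk2d and Camk2g ranked 1705, 1932 and 5780. When 1 library was left out, 2 to 4 of the 5 genes were again among the nearest 5.

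**Figure D4:**
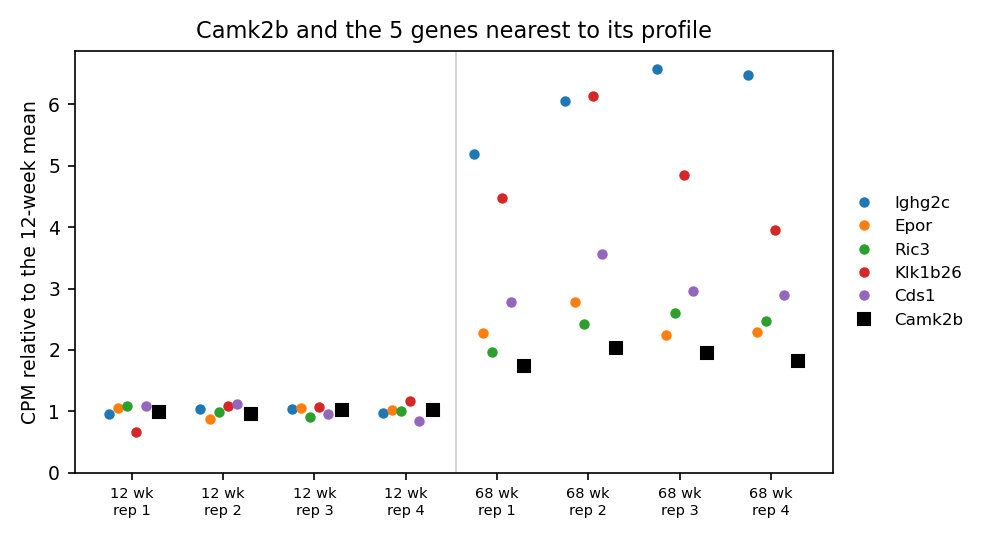
CPM of Camk2b (black squares) and of the 5 genes nearest to its profile, each divided by its own mean at 12 weeks, in the 8 libraries. Camk2b changes least of the 6 genes, all of which are higher in every library at 68 weeks than in any at 12 weeks. The 5 genes were picked for a profile like that of Camk2b, so the shared step is set by the ranking.

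Genes around Camk2b were not called. Of 16 other tested genes within 250 kb, 0 were called by edgeR or DESeq2, 3 had an unadjusted p under 0.05 by edgeR, and the median log2 fold change was 0.081. Near it lay Ykt6, a membrane fusion gene on the opposite strand 1864 bases past the gene's end (0.12 ± 0.048, adjusted p = 0.219, edgeR) and, before the gene's start, Nudcd3 (0.090 ± 0.044, adjusted p = 0.299) and Ddx56 (-0.057 ± 0.086, adjusted p = 0.764). Among 28 tested neighbours of the other 3 members, 0 were called by edgeR and 1, Usp54 near Camk2g, by DESeq2. The nearest tested genes on either side of Camk2g were Plau (-0.050 ± 0.21) and Ndst2 (-0.17 ± 0.096), and those outside the span of Camk2d were Arsj (-0.33 ± 0.23) and the ankyrin-B gene Ank2 (0.11 ± 0.051). Those of Camk2a were Arsi (-1.01 ± 0.30) and Pdgfrb (-0.30 ± 0.11).

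**Figure D5:**
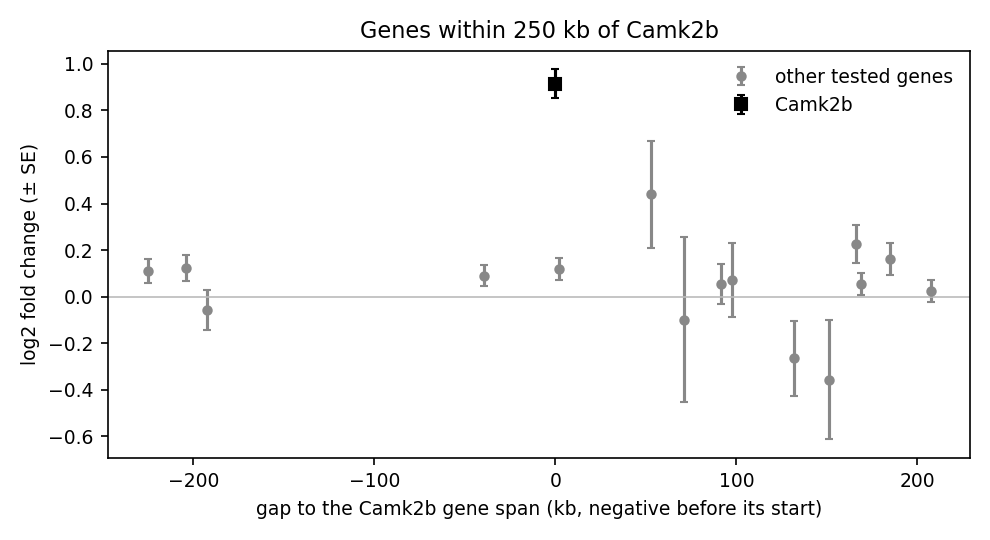
Log2 fold change with its SE of 15 of the 16 tested genes within 250 kb of Camk2b, by their gap in kb to the gene (negative before its start), and of Camk2b at 0. The plotted neighbours lie between -0.36 and 0.44, and Camk2b at 0.92.

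No H3K27me3 region of either list was linked to a CaMKII gene by the authors. The lists hold regions that the authors name unique to an age, 1164 at 12 weeks and 3433 at 68 weeks, so a region present at both ages would not appear in them. Of the 75 tested pathway genes, 8 were linked to a region of the 68-week list (10.7%, against 3.46% of all genes tested) and 1 to a region of the 12-week list (1.33%, against 1.44%). Among them were Camk1d, Camk1g, Kcnd3, Cacna1c, Ttn, Ank3 and Rbm20, and these 7 were not called by edgeR. The authors' scores at the regions of these 7 genes ran from 4.03, at Camk1d, to 7.33, at Cacna1c. The whole 68-week list had a median score of 4.77 and a highest score of 26.7. Ppm1e, which encodes a second CaMKII phosphatase, was the gene of the 12-week list (log2 fold change -0.20 ± 0.12, adjusted p = 0.387, edgeR). The lists give no value per library, so these links carry no replicate error.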

How the data were processed

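RNA of heart tissue was measured in 8 libraries, 4 per age, and grouped by the ages in the sample titles. The authors deposited raw gene counts, and the counts in each library file were identical to those of the series table in all 8 libraries. Trimmomatic 0.36, STAR 2.5.2b, featureCounts, Subread 1.5.2 and DESeq2 stand in the submitters' processing notes, with mm10 as the build; strand use and the handling of reads with several matches are not given in the sources used here. Reads from stretches alike between the CaMKII genes are therefore uncertain. The deposited region lists carry a score per region that the authors call enrichment, of unstated scale; how replicates were combined and which build the region positions use were not established, so the authors' own gene links were used and no region position is printed.

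Genes were tested with edgeR 4.0.16 (R 4.3.3): filterByExpr, TMM, the quasi-likelihood test with age alone in the model, and Benjamini-Hochberg adjustment over 15947 genes at 0.05. Each SE was derived from the F statistic and is approximate. The fit was tested on simulated data. CPM uses the TMM-scaled library size; CPM per kb divides by the exon length in the count tables. Intervals from counting cover counting error only. Every replicate pair of an age differed by more than sampling noise (lowest chi-square per degree of freedom 17.4). Named genes were the 4 members, the called genes and otherwise up to 4 genes of smallest p per list, the 5 profiles nearest to Camk2b among genes whose log2 CPM averaged 0 or more, predicted genes aside, and the nearest tested neighbours; some genes that this rule names or that the counts include are not reported here. The members and lists were chosen with earlier results of these data known. Oga was matched through its older symbol. Alternatives were other scalings, no filter, DESeq2 1.42.0, a replicate block, airway markers in the model and leaving out each library. The fit on the 4 libraries low in airway markers was chosen after seeing the data.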

Additional observations from a re-analysis of the deposited data

Results flagged for a closer look

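In 3 of 32 groups of 4 libraries examined, 1 library lay far from the other 3, where chance alone gives about 1 in 20 groups. The share of Camk2b in the family counts was lowest in 12-week replicate 2, at 3.85%, against 4.20% to 4.23% in the other 3 libraries of that age. Mylk4 was highest in 68-week replicate 2, at 379 CPM, against 297 to 303 CPM, and without that library its log2 fold change was 0.38 (adjusted p = 0.0397, edgeR). Epor was highest in the same library, at 3.75 CPM, against 3.03 to 3.09 CPM.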

How the results depend on the processing

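Camk2b had a log2 fold change of 0.86 to 0.95 under 15 alternatives. Its share of the family was higher by 2.58 to 3.09 percentage points under the 11 alternatives run for shares (counts per kb, each library left out, the replicate block and the 4 libraries low in airway markers). The replicate block cannot change a difference of mean shares in this layout, so it is no check of the shares. Camk2d (0.053 to 0.20) and Camk2g (-0.045 to 0.054) moved by less than the spread between libraries. Between the 4 libraries low in airway markers, the log2 fold change of Camk2a was 0.042, and the share differences were -1.81 percentage points for Camk2a and 0.90 for Camk2d, the latter -1.46 over all 8; the cause was not tested. By counts per kb, the share difference of Camk2g was -3.63 points, against -1.69 by counts.

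Over all genes, 451 were called; DESeq2 called 1001, edgeR with airway markers in the model 47, with the 4 libraries low in them 33, and with 1 library left out 171 to 334. Of the pathway genes, 3 were called, with 1 by library size alone, 11 by DESeq2, 0 with airway markers in the model, 0 in the 4 libraries low in them and 0 to 2 with 1 library left out. Of the neighbours, 0 were called and 1 by DESeq2. Of the 5 genes nearest to Camk2b, 2 to 4 recurred when 1 library was left out. With the replicate number as a block, 160 genes and 1 pathway gene were called and Camk2b had 0.91. The numbers share no stated source. The mean of each gene within an age was subtracted from its log2 CPM, and the deviations left were correlated between the ages. Correlations of these deviations between same-numbered libraries ran from -0.24 to 0.33. By the deviations, 0 of 4 libraries at 12 weeks correlated best with its own number. Counting error, averaged over the libraries of an age, was at most 5.20% for a CaMKII gene. Genes near 1 CPM such as Camk2n2 (log2 fold change 0.047 ± 0.18) carry wider errors.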
